A study of Mus musculus with 9 samples.

Results

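The 42 genes described here encode proteins of the complement system (20 genes) and of coagulation and fibrinolysis (22 genes). They were chosen by symbol from 56748 genes in the deposited count table. Each symbol matched 1 row, and all 42 genes passed the filter on low counts that left 13042 genes for testing. The libraries were made from poly(A) RNA of whole liver, 1 male C57BL/6J mouse each. The mice came from a supplier at 7 weeks of age, acclimated for 1 week and ate a high-fat diet for 20 weeks from 8 weeks of age until 28 weeks of age. In the last 4 weeks, 5 mice received formoterol at 1 mg/kg by daily intraperitoneal injection and 4 mice received the DMSO vehicle. Formoterol is a long-acting agonist of beta2-adrenergic receptors, which signal through cyclic AMP. Both groups therefore share the diet, the injections and the sex, and no group on ordinary chow was analysed here. Libraries M46, M47, M48, M49 and M50 form the formoterol group and M56, M58, M59 and M60 the vehicle group, read from the last letter of the column names. The direction of every comparison rests on that reading. Libraries held 12336665 to 20339665 counts.

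Complement is a cascade of plasma proteases that marks surfaces for removal and can pierce membranes. It starts through antibody (classical pathway), sugar-binding lectins (lectin pathway) or spontaneous turnover of C3 (alternative pathway), and ends in a pore built from C5 to C9. Coagulation is a second cascade of plasma proteases, in which thrombin turns fibrinogen into fibrin, and plasmin later dissolves it. Hepatocytes make most of these proteins and secrete them into blood, while properdin comes mainly from myeloid cells, tissue factor pathway inhibitor from endothelium and adipsin in mice largely from fat.

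Most genes of both systems had higher mean levels in the formoterol livers. Of the 20 complement genes, 16 had a positive log2 fold change (formoterol minus vehicle), with a median of 0.41. Of the 22 coagulation genes, 20 did, with a median of 0.35. Over all 13042 genes tested, 48.7% were positive and the median was −0.014. No gene of either system passed the edgeR quasi-likelihood test at a Benjamini-Hochberg adjusted p under 0.05 with all 9 libraries, and 0% of all genes did. The smallest adjusted p was 0.158 among the complement and 0.159 among the coagulation genes. At an unadjusted p under 0.05, 8 complement and 9 coagulation genes were higher and none was lower in edgeR, where 9.03% of all genes tested were higher and 5.53% lower. DESeq2 called 5 of the 42 genes at an adjusted p under 0.05, all higher (Cfd, C8b, Kng1, Proz and Vtn), where it called 1.96% of all genes with an adjusted p higher.

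**Figure D1:**
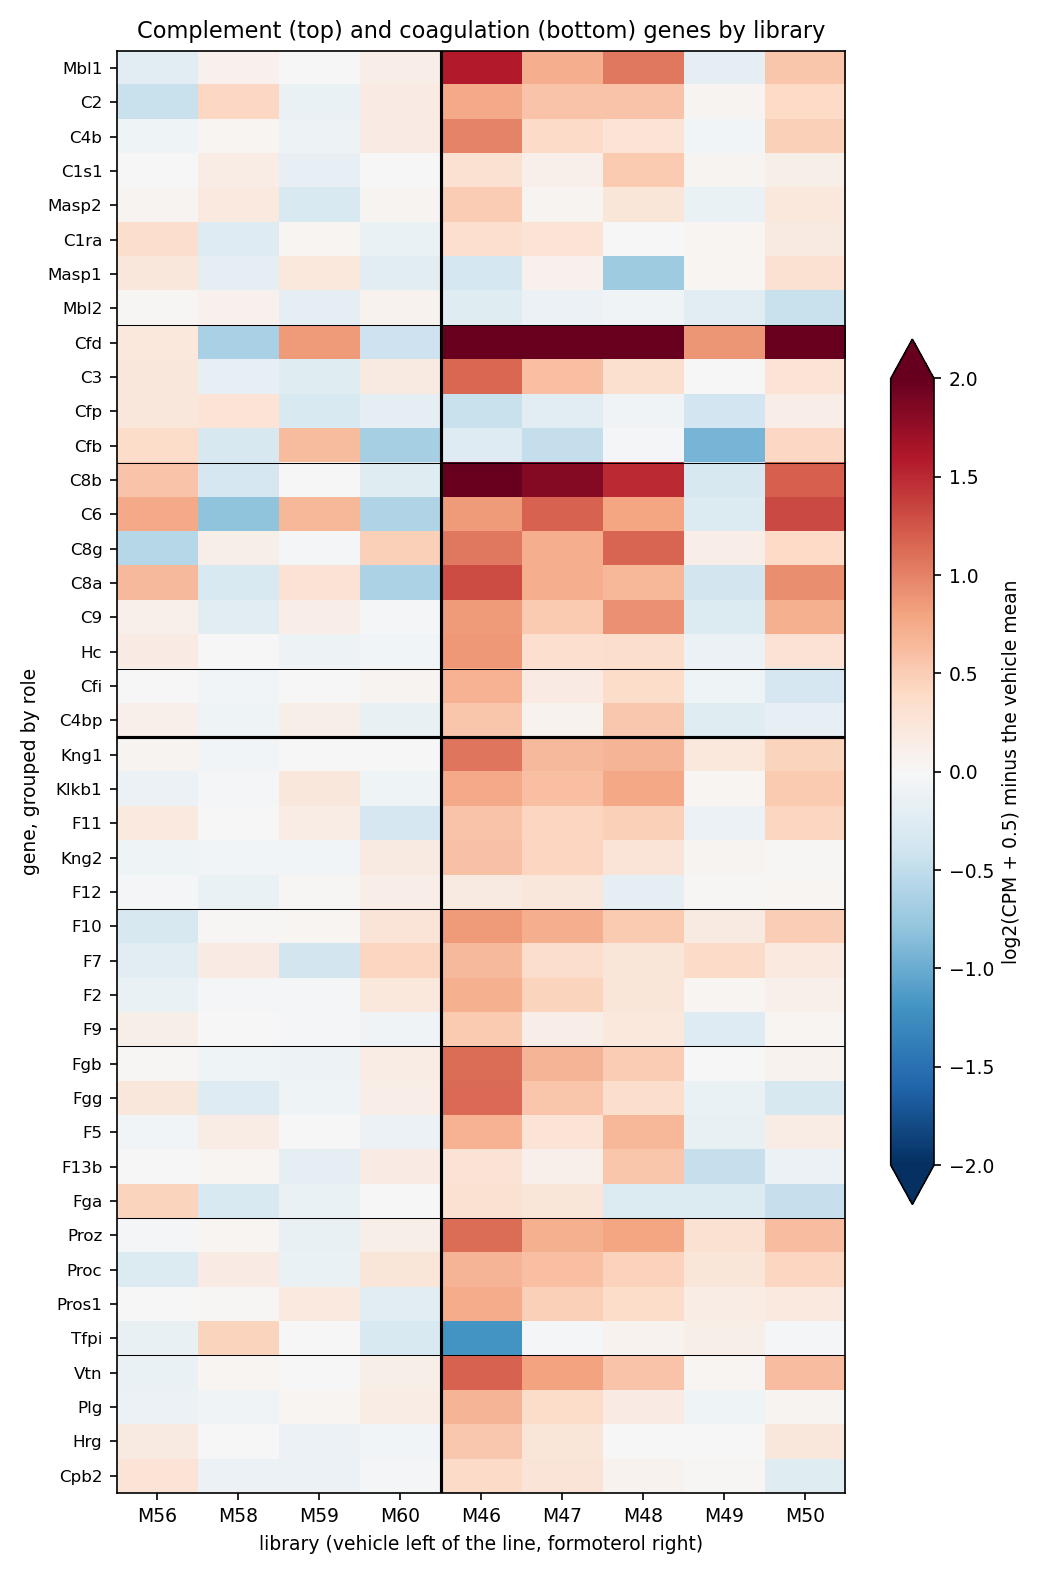
Heat map of the 42 genes (rows, grouped by role, complement above the heavy line) in the 9 libraries (columns). Colour gives log2(CPM + 0.5) minus the mean of the vehicle libraries, and colours saturate at 2 and −2. Formoterol library M46 is highest in 27 genes, and M49 lies within the vehicle range in 29.

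The formoterol libraries did not move alike. M46 had the highest level of all 9 libraries in 27 of the 42 genes. M49 was the lowest formoterol library in 29 and lay within the vehicle range in 29. M49 exceeded every vehicle library in only 3 genes, whereas M46 did so in 35, M48 in 31, M47 in 29 and M50 in 21. These counts were made for the 42 genes alone. They do not show whether M46 and M49 stood apart in these genes more than in others. Without M49, edgeR called 10 of the 42 genes, all higher (C8b, C8g, C9, Cfd, Mbl1, F10, Klkb1, Kng1, Proz and Vtn), where it called 3.47% of all genes tested higher. Without M46 it called none and the medians were 0.24 for complement and 0.23 for coagulation. Without both M46 and M49, a comparison chosen after the data were seen, it called 8 of the 42 higher (C8b, C9, Cfd, Klkb1, Kng1, Mbl1, Proz and Vtn), and 1.44% of all genes tested.

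Summed over the 20 complement genes, CPM (counts per 1e6, after TMM scaling of the library totals) was 9380, 6905, 7084, 4763 and 6301 in formoterol libraries M46 to M50. In vehicle libraries M56, M58, M59 and M60 it was 5516, 4792, 4870 and 5231. After this scaling all formoterol libraries except M49 exceeded every vehicle library. The 22 coagulation genes summed to 24662, 19252, 17518, 13252 and 15273 CPM in M46 to M50 and to 13286, 12552, 12654 and 13861 in the vehicle libraries, with the same exception. As shares of raw counts, without TMM scaling, the groups overlapped further. The complement genes took 0.472% to 0.618% in the vehicle and 0.527% to 0.871% in the formoterol libraries. The coagulation genes took 1.24% to 1.53% of all counts in the vehicle and 1.28% to 2.29% in the formoterol libraries. On this scale M50, and not M49, was the lowest formoterol library for both systems, and M49 and M50 lay within the vehicle range.

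The sum of the hepatocyte markers was higher with formoterol, like both gene groups, but the single markers did not move alike. Of 10 listed markers, 9 were present in the table. They summed to 88431 to 102520 CPM in the vehicle and 104541 to 143816 in the formoterol libraries, without overlap. Most of this sum was Alb, whose own groups overlapped. Alb had 63462 to 73380 CPM in the vehicle and 72733 to 105058 in the formoterol libraries. The median log2 fold change of the 9 markers was 0.35, the value of Alb. Of the 9, 8 were positive and 4 were higher at an unadjusted p under 0.05, as were 9.03% of all genes tested. Ttr, Ahsg, Fabp1 and Apob had log2 fold changes of 0.080, 0.11, 0.043 and −0.20. When libraries were scaled to these markers in place of TMM factors, an alternative added after the data were seen, the 42 genes divided into 19 positive and 23 negative. The medians were then 0.039 for complement and −0.013 for coagulation, against a median of −0.34 over all genes. Relative to all genes the medians were 0.38 and 0.33. A change of library scaling shifts all genes nearly alike, so it hardly alters these relative medians and cannot test them. The genes that turned negative were C1ra, C1s1, Masp2, Hc, Cfi, C4bp, F2, F5, F9, F11, F12, F13b, Fgg, Kng2, Plg, Hrg and Cpb2. With library totals alone, 31 of the 42 were positive. Several of the markers, such as Alb and Apoa1, themselves encode secreted plasma proteins. Markers of other cells moved the other way in part of the libraries. The 10 sinusoidal endothelial markers summed to 127 to 155 CPM in the vehicle and 47.8 to 158 in the formoterol libraries, with M46 lowest and M49 highest. The 10 stellate cell and fibroblast markers spanned 352 to 504 and 119.6 to 513 CPM in the same order, again with M46 lowest and M49 highest. The 10 monocyte and macrophage markers spanned 57.0 to 99.8 and 19.4 to 75.01 CPM. In bulk liver, fewer cells of a type and less RNA per cell cannot be told apart, and the part of cell composition in the values below was not tested beyond the marker scaling.

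**Figure D2:**
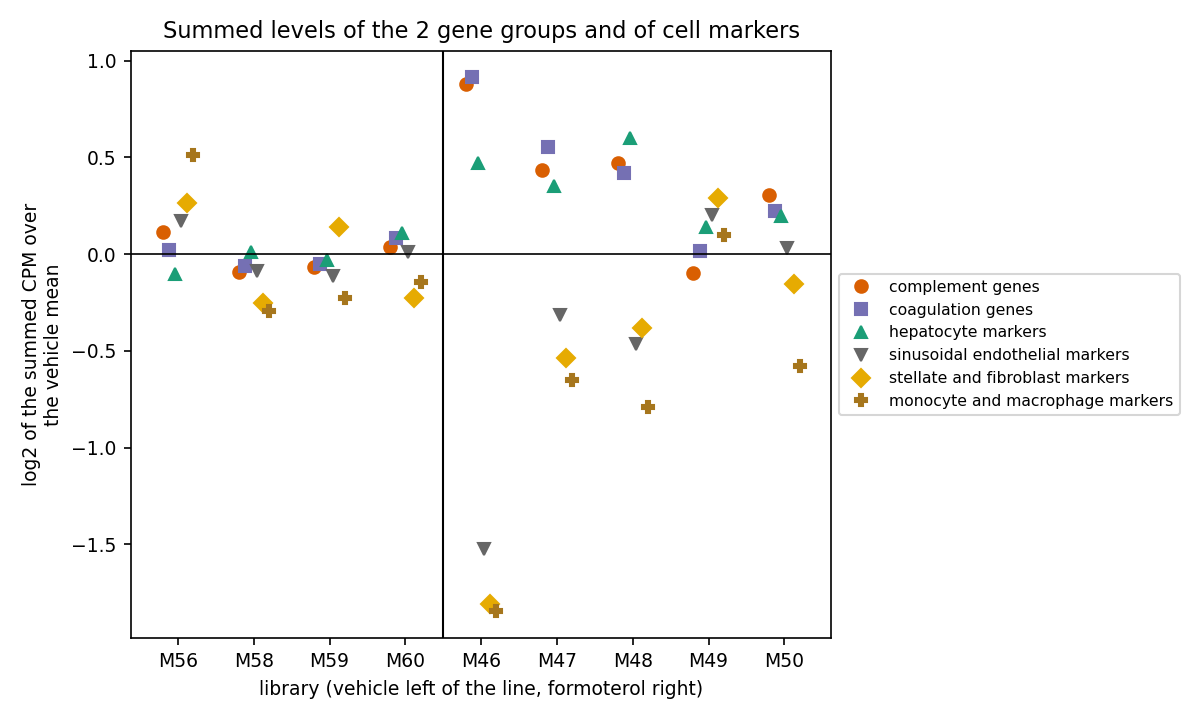
Summed CPM of the 20 complement genes, the 22 coagulation genes and 4 marker lists in each library, as log2 of the ratio to the vehicle mean. In M46 both gene groups lie highest and the endothelial, stellate and macrophage markers lowest, while in M49 both gene groups lie near the vehicle mean.

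The largest difference of all 42 genes was in the alternative pathway. Cfd (ENSMUSG00000061780; chromosome 10, 79726687 to 79728489 on mm39) encodes adipsin, or factor D, the protease that cleaves factor B bound to C3b. It had 12.5, 6.67, 19.7 and 7.92 CPM in vehicle libraries M56, M58, M59 and M60 and 81.9, 86.6, 81.5, 20.3 and 107 CPM in formoterol libraries M46 to M50, an order of libraries kept below. Every formoterol library exceeded every vehicle library, as also for Proz and Kng1 but no other of the 42 genes, and none of the 42 had the opposite order. Over all genes tested the groups did not overlap in 4.84%, with formoterol higher in 2.45% and lower in 2.38%. M49, at 20.3 CPM, lay just above M59, at 19.7. Mean levels were 75.4 ± 32.6 CPM against 11.7 ± 5.89 (mean ± SD, n = 5 and 4, formoterol given first here and below), a 6.4-fold difference (log2 fold change 2.68, SE 0.50, adjusted p = 0.158). DESeq2 gave an adjusted p of 0.000256, and without M49 the edgeR log2 fold change was 2.92 (SE 0.29, adjusted p = 0.000637). Without M46 it was 2.64 (SE 0.58, adjusted p = 0.273). Scaled to hepatocyte markers it was 2.28. Of the 8 listed fat cell markers, Plin1 had no count in any library and Retn 1 count in M50. Adipoq had 4 in M47 and 8 in M49, and Lep 12 in M49. Other markers of the list were present. Cidea, Fabp4 and Lpl spanned 17.4 to 46.5, 7.40 to 11.9 and 18.0 to 33.8 CPM in the vehicle libraries. In the formoterol libraries they spanned 4.88 to 26.7, 3.82 to 15.3 and 11.7 to 65.2 CPM, with M49 highest for Fabp4 and Lpl. The part of fat cells in the Cfd values was not tested. The whole list of 8 fat cell markers, in which Pck1 of hepatocytes counts too, summed to 940.3 to 1585 CPM in the vehicle and 964 to 1667 in the formoterol libraries.

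The 300 bases around the annotated start of Cfd (250 before to 50 after it, RefSeq, chr10:79890603-79890902 on GRCm38.p6, plus strand) are shown because this gene had the largest fold change. They hold no match to the motifs described below.

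Cfd: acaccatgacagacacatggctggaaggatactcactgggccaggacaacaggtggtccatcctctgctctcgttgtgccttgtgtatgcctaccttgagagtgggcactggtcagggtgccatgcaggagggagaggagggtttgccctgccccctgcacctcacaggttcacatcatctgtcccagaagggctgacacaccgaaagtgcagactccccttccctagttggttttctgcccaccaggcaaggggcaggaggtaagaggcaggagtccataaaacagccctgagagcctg

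The other alternative pathway genes gave smaller differences. C3, the central protein on which all complement pathways meet, had 1643, 1252, 1196 and 1603 CPM in the vehicle and 3122, 2134, 1769, 1416 and 1707 in the formoterol libraries. M46 stood highest and M49 lay within the vehicle range (2029.5 ± 662 CPM against 1423 ± 232; log2 fold change 0.51, SE 0.22, adjusted p = 0.301; log2 fold change 0.29 without M46). C3 was the most abundant complement gene per length, at 342 CPM per kb over all libraries. Cfp, which encodes the stabilizer properdin, had 8.68 ± 1.54 CPM against 10.1 ± 2.11 (log2 fold change −0.21, SE 0.20). Cfb, which encodes factor B, was counted at only 0.536 to 2.54 CPM (log2 fold change −0.39, SE 0.50; from −0.69 without M50 to −0.064 without M59). The table lists a predicted gene, Gm20547, that covers Cfb and part of C2 on the same strand and has 0 counts in every library. In the GENCODE vM21 transcripts, Gm20547 shares 81.2% of the 75-base windows of Cfb and 55.6% of those of C2. The levels of Cfb and C2 are uncertain for this reason.

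All 6 of the 42 genes that belong to the terminal pore had positive log2 fold changes, with a median of 0.68 (with scaling to hepatocyte markers all but Hc, at −0.0059), and C8b, C8g and C9 had an unadjusted p under 0.05. C8b (chromosome 4, 104623514 to 104661745), the beta chain of C8, had 46.2, 24.6, 31.2 and 26.2 CPM in the vehicle and 126.4, 112, 88.1, 24.9 and 71.8 in the formoterol libraries. M46, M47, M48 and M50 all exceeded the vehicle libraries and M49 lay among them (84.6 ± 39.5 CPM against 32.1 ± 9.86; log2 fold change 1.40, SE 0.40, adjusted p = 0.191; DESeq2 adjusted p = 0.00849). Without M49 the log2 fold change was 1.63 (SE 0.22, adjusted p = 0.00208), and without M46 it was 1.196 (adjusted p = 0.376). The gamma chain gene C8g had 178, 285, 259 and 365 CPM with vehicle and 545, 433, 589, 287 and 347 CPM with formoterol, with M49 and M50 within the vehicle range (440.3 ± 128 CPM against 272 ± 76.9; log2 fold change 0.70, SE 0.24, adjusted p = 0.218). C9, which polymerizes into the ring of the pore, had 359.7, 289.7, 366 and 331 CPM with vehicle and 606, 485, 632, 277 and 551 CPM with formoterol, with M49 below every vehicle library and the other formoterol libraries above all of them (510.2 ± 142 CPM against 337 ± 34.8; log2 fold change 0.60, SE 0.21, adjusted p = 0.223).

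C8a, which lies beside C8b on chromosome 4, had 394, 203, 304 and 160.4 CPM with vehicle and 616, 413, 397, 194 and 476 CPM with formoterol. Its vehicle libraries differed from each other by more than 2-fold, and the groups overlapped (log2 fold change 0.66, SE 0.32, adjusted p = 0.369). C6 had a similar spread, with 118, 39.7, 111 and 45.7 CPM in the vehicle and 127, 158, 121, 57.5 and 175 in the formoterol libraries (log2 fold change 0.70, SE 0.39, adjusted p = 0.449). In both genes vehicle libraries M56 and M59 were above M58 and M60. The pore gene C7, not among the 42, had 0 to 9 counts a library and was not tested. Hc, which encodes C5, had 430.3 ± 108 CPM against 332 ± 28.2 (log2 fold change 0.38, SE 0.18, adjusted p = 0.365; log2 fold change 0.21 without M46).

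Among the initiating genes, the 2 mannose-binding lectins, which recognize sugars on microbes, had fold changes of opposite sign. Mbl1 (chromosome 14, 40873415 to 40881558) had 118, 147, 139 and 151 CPM in the vehicle and 417, 228, 287, 121 and 203 in the formoterol libraries. The 4 formoterol libraries other than M49 exceeded all vehicle libraries (251 ± 110.3 CPM against 139 ± 14.5; log2 fold change 0.86, SE 0.27, adjusted p = 0.195; without M49 1.03 (SE 0.20, adjusted p = 0.0138); without M46 0.59 (SE 0.22, adjusted p = 0.363)). Mbl2 (chromosome 19, 30210342 to 30217087) had 337, 349.7, 289 and 348 CPM with vehicle and 279, 305, 313, 282 and 243 CPM with formoterol, and the groups overlapped (284 ± 27.0 CPM against 331 ± 28.4; log2 fold change −0.22, SE 0.14, adjusted p = 0.495). Its unadjusted p was 0.137 in the main edgeR fit. It was under 0.05, with a negative sign, under library totals, marker scaling and removal of the gene length trend. Library totals and marker scaling lowered the median of all genes as well, to −0.16 and −0.34. At that p they gave 1292 and 2644 of all 13042 genes lower, and removal of the length trend gave 666. The ratio of Mbl1 to Mbl2, which no scaling of libraries can alter, was 0.351, 0.42, 0.481 and 0.433 in the vehicle and 1.49, 0.748, 0.917, 0.429 and 0.835 in the formoterol libraries. Its means were 0.885 ± 0.388 against 0.421 ± 0.0537, with M49 at the vehicle level (two-sided exact permutation p = 0.0476, Benjamini-Hochberg adjusted p = 0.119 over the 10 ratios computed).

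The start regions of both lectin genes (RefSeq, GRCm38.p6, plus strand; chr14:41151206-41151505 and chr19:30232678-30232977) are shown side by side because the genes are paralogs whose log2 fold changes had opposite signs. Capitals mark the longest run that both share, 13 bases that begin 23 bases before the start of Mbl1 and 57 bases before that of Mbl2. That run occurred in 3 of 32851 start regions of the table, those of Mbl1 and Mbl2 included.

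Mbl1: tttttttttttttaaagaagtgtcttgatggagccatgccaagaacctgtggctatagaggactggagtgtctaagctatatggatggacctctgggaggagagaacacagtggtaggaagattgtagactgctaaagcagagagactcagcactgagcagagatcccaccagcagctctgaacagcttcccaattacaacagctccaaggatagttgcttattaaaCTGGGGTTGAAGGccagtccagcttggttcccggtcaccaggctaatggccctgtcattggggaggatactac

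Mbl2: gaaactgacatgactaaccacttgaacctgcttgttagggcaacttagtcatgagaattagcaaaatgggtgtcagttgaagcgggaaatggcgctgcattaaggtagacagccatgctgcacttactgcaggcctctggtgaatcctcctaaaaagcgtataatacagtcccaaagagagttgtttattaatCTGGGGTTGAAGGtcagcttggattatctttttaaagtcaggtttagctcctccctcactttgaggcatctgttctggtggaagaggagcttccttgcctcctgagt

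The proteases and substrates of the classical and lectin pathways had smaller differences. C2 and C4b, whose products form the C3 convertase of both pathways, had 25.2 ± 4.45 CPM against 18.2 ± 4.71 and 599 ± 169 CPM against 438 ± 37.4, with log2 fold changes of 0.47 (SE 0.20, adjusted p = 0.29) and 0.45 (SE 0.19, adjusted p = 0.297). C4b had 412, 447, 406 and 487 CPM with vehicle and 874, 569.8, 527, 419.7 and 606 CPM with formoterol, and M49 lay within the vehicle range. Without M46 its log2 fold change was 0.27. Its near-identical copy C4a shares 23.5% of its 75-base windows, and counting may have divided reads between them. C4a itself had 38.6 ± 15.4 CPM against 19.7 ± 2.74 (log2 fold change 0.97, SE 0.30). C2 had 12.99, 23.9, 16.1 and 19.9 CPM with vehicle and 30.5, 26.6, 26.5, 18.5 and 23.7 CPM with formoterol, with M49 and M50 inside the vehicle range. C1s1, C1ra and Masp2, the initiating proteases, had log2 fold changes of 0.23, 0.15 and 0.18, and Masp1 one of −0.10, each with an unadjusted p above 0.1 and a negative sign under marker scaling. The copies C1rb and C1s2 share windows with C1ra and C1s1, which have shared windows at 42.4% and 28.0% of all 75-base positions, so these values are uncertain too. The copies themselves held 9 and 7 counts over all libraries. Masp2 is uncertain as well, since it shares windows with Tardbp on the other strand.

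The complement inhibitors among the 42 genes had small differences, negative under marker scaling. Cfi, which encodes the protease factor I that inactivates C3b and C4b, had 397 ± 112 CPM against 345 ± 11.1 (log2 fold change 0.21, SE 0.19). C4bp, which encodes the cofactor C4b-binding protein, had 489.6 ± 129.8 CPM against 429 ± 39.9 (log2 fold change 0.19, SE 0.19).

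**Figure D3:**
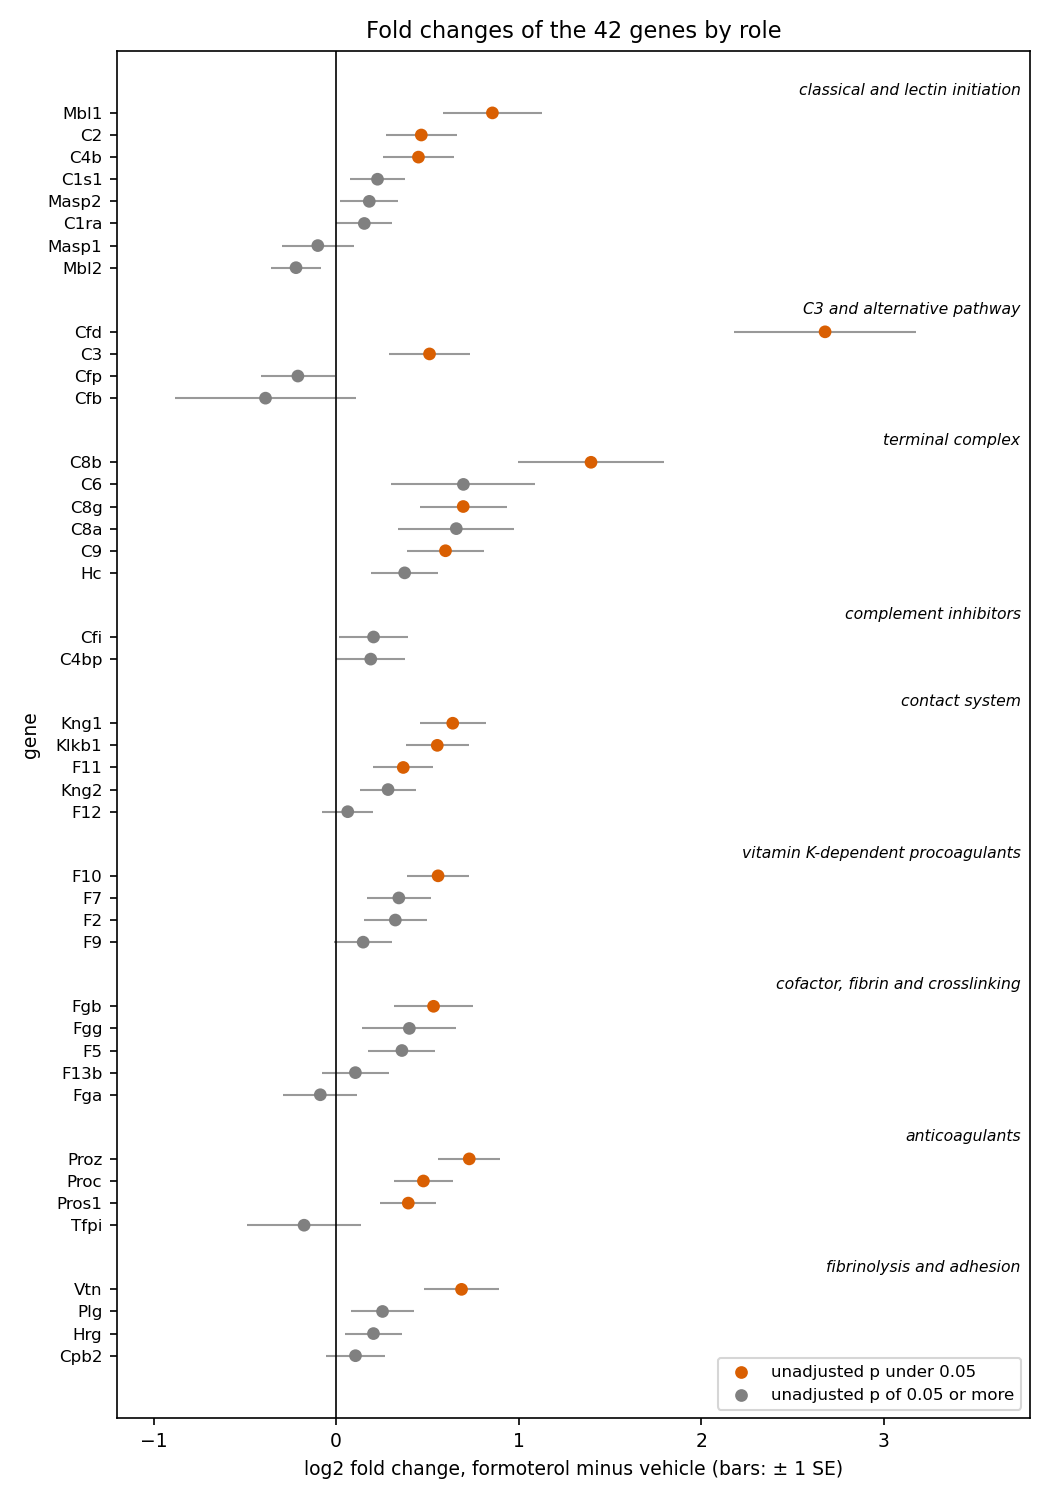
Log2 fold change of each of the 42 genes (formoterol minus vehicle, edgeR, bars ± 1 SE), grouped by role; orange points have an unadjusted p under 0.05. Cfd lies farthest right at 2.68 and C8b next at 1.40, and the only negative values are those of Mbl2, Masp1, Cfp, Cfb, Fga and Tfpi.

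In the contact system, which starts coagulation on surfaces and releases bradykinin, Kng1 had groups that did not overlap. Kng1 (ENSMUSG00000022875; chromosome 16, 22876615 to 22900828), which encodes the kininogen that carries bradykinin, had 2076, 1924, 2025 and 2002 CPM in the vehicle and 4217, 3143, 3212, 2318 and 2733 in the formoterol libraries. Every formoterol library exceeded every vehicle library (3125 ± 708 CPM against 2007 ± 62.9; log2 fold change 0.64, SE 0.18, adjusted p = 0.173; DESeq2 adjusted p = 0.0211). Its mouse paralog Kng2 had 217, 221, 222 and 262 CPM with vehicle and 344, 309.5, 276, 239.8 and 235 CPM with formoterol, with overlap (log2 fold change 0.28, SE 0.16, adjusted p = 0.421). The ratio of Kng1 to Kng2 was 9.56, 8.7, 9.11 and 7.65 in the vehicle and 12.3, 10.2, 11.6, 9.67 and 11.6 in the formoterol libraries. The groups did not overlap, with means of 11.1 ± 1.1 against 8.76 ± 0.816 (two-sided exact permutation p = 0.0159, the smallest that 5 against 4 libraries allow, and 0.0794 adjusted over 10 ratios). Kng1 and Kng2 share 10.6% and 10.45% of their 75-base windows.

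Klkb1 (chromosome 8, 45719726 to 45747896), which encodes plasma prekallikrein, the protease that cuts kininogen, had 245, 261, 311 and 249 CPM in the vehicle and 449, 403, 454, 271 and 380.3 in the formoterol libraries. M49 alone of the formoterol libraries lay within the vehicle range (391 ± 74.0 CPM against 267 ± 30.3; log2 fold change 0.55, SE 0.17, adjusted p = 0.191). It shares 42.4% of its windows with the predicted gene Gm45753, which held 2 counts in all. F11, its neighbour on chromosome 8 and the gene of factor XI, had 42.3, 36.9, 40.9 and 29.4 CPM with vehicle and 54.9, 50.3, 51.6, 34.2 and 50.2 CPM with formoterol, with only M49 within the vehicle range (log2 fold change 0.37, SE 0.16, adjusted p = 0.32; unadjusted p = 0.0415). F12, which encodes factor XII, the trigger of the system, had 231 ± 24.8 CPM against 221 ± 17.4 (log2 fold change 0.064, SE 0.14).

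The vitamin K-dependent factors F7, F10 and the anticoagulant cofactor gene Proz lie next to each other on chromosome 8, between 13076034 and 13126026. F10, which encodes the protease that activates prothrombin, had 168, 214, 216 and 253 CPM in the vehicle and 382, 348, 301, 239 and 297 in the formoterol libraries. M49 lay below vehicle library M60 and the other 4 formoterol libraries exceeded all vehicle libraries (313 ± 54.5 CPM against 213 ± 34.8; log2 fold change 0.56, SE 0.17, adjusted p = 0.191; without M49 0.64 (SE 0.16, adjusted p = 0.0346); without M46 0.47 (SE 0.17, adjusted p = 0.353)). F7, which starts coagulation with tissue factor, had 23.2, 30.1, 20.7 and 36.5 CPM with vehicle and 42.5, 34.5, 32.0, 35.3 and 31.1 CPM with formoterol (log2 fold change 0.34, SE 0.18, adjusted p = 0.39; log2 fold change 0.23 without M59). F2, which encodes prothrombin and was the most abundant of the procoagulant proteases per length at 221 CPM per kb, had 1116 ± 221 CPM against 891 ± 96.7 (log2 fold change 0.32, SE 0.17, adjusted p = 0.405; log2 fold change 0.20 without M46). F9, the gene of the factor missing in haemophilia B, had 211 ± 41.7 CPM against 191 ± 10.8 (log2 fold change 0.15, SE 0.16, adjusted p = 0.717).

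Proz (ENSMUSG00000031445; chromosome 8, 13110914 to 13126026) had the smallest p of the coagulation genes. It encodes protein Z, a cofactor with which a serpin inhibits factor Xa. It had 327, 342, 299 and 361 CPM in the vehicle and 721, 543, 571, 411 and 507 in the formoterol libraries. The groups did not overlap, M49 lying lowest and M46 highest of the formoterol libraries (551 ± 113 CPM against 332 ± 26.1; log2 fold change 0.73, SE 0.17, adjusted p = 0.159; DESeq2 adjusted p = 0.005; without M49 0.81 (SE 0.15, adjusted p = 0.0109); without M46 0.60 (SE 0.16, adjusted p = 0.267)). Serpina10, the gene of that serpin, had 153 ± 73.5 CPM against 99.7 ± 6.34 (log2 fold change 0.62, SE 0.27, adjusted p = 0.304).

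The protein C pathway gave smaller differences, positive under every scaling. Proc, which encodes protein C, the protease that inactivates factors V and VIII, had 398, 535, 437 and 567 CPM with vehicle and 772, 731, 662, 564 and 644 CPM with formoterol. M49 alone of the formoterol libraries lay below the highest vehicle library (675 ± 80.7 CPM against 484 ± 79.7; log2 fold change 0.48, SE 0.16, adjusted p = 0.214). Pros1, its cofactor protein S, had 39.9, 40.5, 45.4 and 34.1 CPM with vehicle and 66.7, 55.2, 51.7, 43.9 and 45.5 CPM with formoterol, with M49 inside the vehicle range and M50 just above it (52.6 ± 9.13 CPM against 40.0 ± 4.65; log2 fold change 0.40, SE 0.15, adjusted p = 0.256). Tfpi, the endothelial inhibitor of the tissue factor complex, stood at only 1.71 to 6.42 CPM, with its lowest value in M46 (log2 fold change −0.18, SE 0.31).

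**Figure D4:**
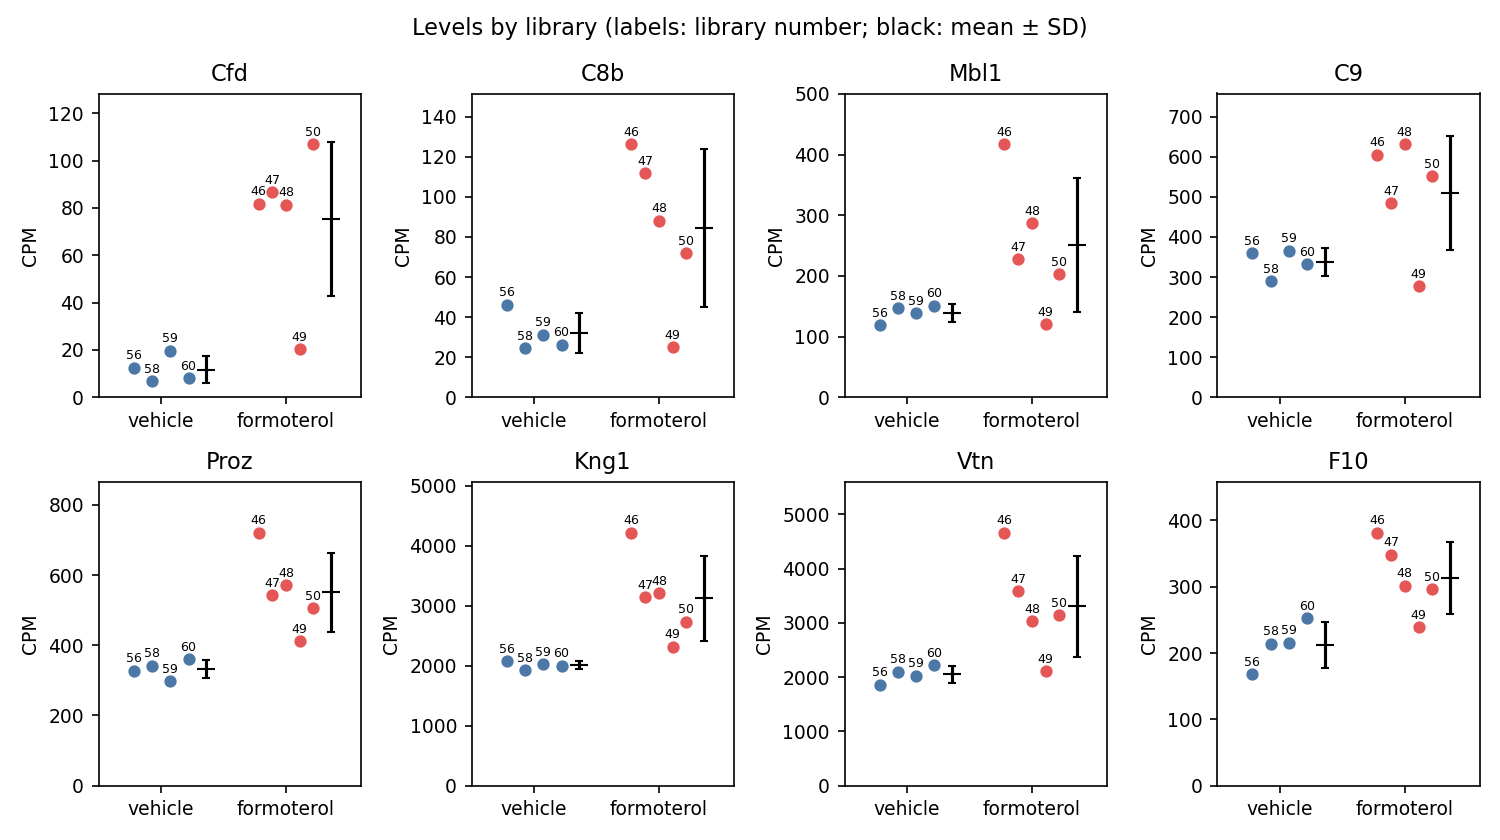
CPM of 8 genes in each library (points, numbered by library) with mean and SD in black; each axis starts at 0. In every panel library M49 is the lowest formoterol point, and in Cfd, Proz and Kng1 even this point lies above all vehicle points.

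The 3 fibrinogen chains, which hepatocytes assemble in equal numbers, did not differ alike. Their genes lie side by side on chromosome 3 (Fgg, Fga and Fgb, between 82915031 and 82957170). Fgb had 1868, 1736, 1715 and 2033 CPM in the vehicle and 3983, 2945, 2608, 1834 and 1933 in the formoterol libraries, with M49 and M50 inside the vehicle range (2661 ± 872 CPM against 1838 ± 146; log2 fold change 0.53, SE 0.22, adjusted p = 0.279; log2 fold change 0.33 without M46). Fgg had 1416, 1012, 1138 and 1333 CPM with vehicle and 2673, 1784, 1555, 1104 and 973 CPM with formoterol, from the lowest of all libraries in M50 to the highest in M46 (log2 fold change 0.40, SE 0.26, adjusted p = 0.5; log2 fold change 0.14 without M46). Fga had 1203, 719, 814 and 883 CPM with vehicle and 1093, 1050.1, 731, 737 and 648 CPM with formoterol, and the groups overlapped (log2 fold change −0.086, SE 0.20, adjusted p = 0.885). Per length the chains had 689 (Fgg), 602 (Fgb) and 291 (Fga) CPM per kb.

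The ratio of Fgb to Fga was 1.55, 2.42, 2.11 and 2.3 in the vehicle and 3.64, 2.8, 3.57, 2.49 and 2.99 in the formoterol libraries. Its groups did not overlap, M49 included, with means of 3.1 ± 0.497 against 2.09 ± 0.383 (two-sided exact permutation p = 0.0159, the smallest possible, and 0.0794 adjusted over 10 ratios). The ratio of Fgg to Fga had means of 1.85 ± 0.418 against 1.37 ± 0.14 (exact permutation p = 0.0476, adjusted p = 0.119) and that of Fgb to Fgg 1.69 ± 0.181 against 1.52 ± 0.162 (exact permutation p = 0.206). None of the 10 ratios passed the adjustment. Even full separation of the groups, as for Fgb/Fga and Kng1/Kng2, gave p = 0.0159 in the exact permutation test and 0.0794 after adjustment. Missing the threshold therefore does not show equal ratios. The 10 ratios were chosen after the levels were known and comprised subunits of 1 protein or paralogous genes. C8b/C8a (exact permutation p = 0.0635) was the closest of the rest.

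**Figure D5:**
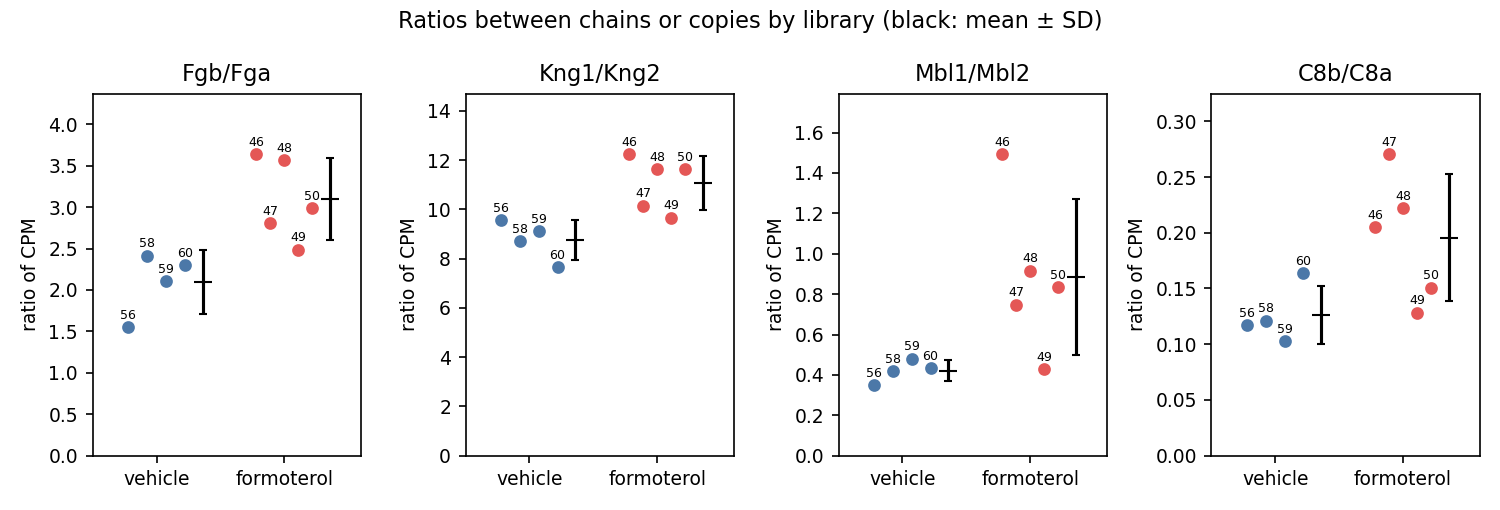
Ratio of CPM between chains of 1 protein or copies of 1 gene in each library, with mean and SD in black and axes from 0. The formoterol points of Fgb/Fga and Kng1/Kng2 all lie above the vehicle points. M49 lies within the vehicle range for Mbl1/Mbl2, and both M49 and M50 do so for C8b/C8a.

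The start regions of Fgb (minus strand, chr3:83049814-83050113) and Fga (plus strand, chr3:83025903-83026202, both RefSeq on GRCm38.p6) are shown because the ratio of these neighbours had groups that did not overlap. Capitals mark matches, on either strand, to motifs that included CAAAGNNCA (HNF4 type), TTNNGCAA (C/EBP type), TTCNNNGAA and CTGGGAA (STAT types, which may overlap each other) and TGACGTCA (cyclic AMP response element). In Fgb the matches are TTCGAGGAA, CTGGGAA and TTGCTCAA, and in Fga they are TTCCTGGAA, TTGAGCAA and TGAGCTTTG, the last an HNF4-type match on the opposite strand.

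Fgb: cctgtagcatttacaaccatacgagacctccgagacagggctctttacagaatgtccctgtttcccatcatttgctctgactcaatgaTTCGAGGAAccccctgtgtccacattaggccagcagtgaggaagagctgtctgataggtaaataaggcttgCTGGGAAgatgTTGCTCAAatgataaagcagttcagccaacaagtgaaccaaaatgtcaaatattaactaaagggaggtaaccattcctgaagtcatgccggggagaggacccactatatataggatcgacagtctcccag

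Fga: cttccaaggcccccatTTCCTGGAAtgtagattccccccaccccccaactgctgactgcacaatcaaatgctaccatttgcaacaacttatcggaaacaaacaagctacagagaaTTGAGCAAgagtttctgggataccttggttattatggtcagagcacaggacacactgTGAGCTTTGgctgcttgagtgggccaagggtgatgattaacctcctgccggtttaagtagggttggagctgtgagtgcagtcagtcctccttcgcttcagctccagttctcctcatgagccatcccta

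Start regions were found for 34 of the 42 genes, 37 regions in all. The shares of the 34 genes below count a gene if any of its regions matched, whereas the shares of the table count regions. By region, 12 of the 37 held a C/EBP-type match, 7 an HNF4-type match, 8 TTCNNNGAA and 9 CTGGGAA. A C/EBP-type match was present in 35.3% of these genes, against 10.8% of the 32851 start regions of the table. The shares were 17.6% against 6.36% for HNF4-type, 23.5% against 8.30% for TTCNNNGAA and 26.5% against 11.1% for CTGGGAA. The cyclic AMP response element was found in 1 of the 34 genes, Cpb2, and in 1.79% of all start regions. C/EBP and HNF4 are known as activators of hepatocyte genes, and a match of letters does not show that a factor binds.

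Among the remaining coagulation genes, F5, which encodes the cofactor of factor Xa, had 611 ± 147 CPM against 476 ± 38.9 (log2 fold change 0.36, SE 0.18, adjusted p = 0.387). F13b, the carrier subunit of the enzyme that crosslinks fibrin, had 59.1 ± 15.5 CPM against 54.9 ± 5.77 (log2 fold change 0.11, SE 0.18). Vtn (chromosome 11, 78389917 to 78393150) encodes vitronectin, an adhesion protein of plasma and matrix that also blocks the terminal complement pore. It was the most abundant of the 42 genes per length, at 1354 CPM per kb. It had 1861, 2098, 2027 and 2223 CPM in the vehicle and 4664, 3582, 3029.8, 2107 and 3141 in the formoterol libraries, with M49 alone within the vehicle range (3305 ± 929.9 CPM against 2052 ± 151; log2 fold change 0.69, SE 0.20, adjusted p = 0.182; DESeq2 adjusted p = 0.0354; without M49 0.81 (SE 0.17, adjusted p = 0.015); without M46 0.52 (SE 0.18, adjusted p = 0.326)). Plg, which encodes plasminogen, had 886 ± 192 CPM against 743 ± 62.0 (log2 fold change 0.25, SE 0.17, adjusted p = 0.526; log2 fold change 0.12 without M46), and is uncertain because it shares windows with Slc22a3 on the other strand. Hrg, which encodes a plasminogen- and heparin-binding glycoprotein, and Cpb2, which encodes a carboxypeptidase that slows fibrinolysis, had log2 fold changes of 0.20 (SE 0.16) and 0.11 (SE 0.16).

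Other genes of both pathways were read from lists of partners. Of 24 listed complement regulators and recognition proteins, 19 were tested, and none passed edgeR's adjusted threshold. The median log2 fold change over the 19 was 0.053. At an unadjusted p under 0.05, 6 were higher and none lower, where 9.03% of all genes tested were higher and 5.53% lower. They included Cfhr2 and Cfhr4, 2 genes of similar sequence whose shared windows were not counted, so their single values may be uncertain. Cfhr2 had 963 ± 350.4 CPM against 546 ± 19.2 (log2 fold change 0.82, SE 0.24, adjusted p = 0.176) and Cfhr4 408 ± 159.7 CPM against 229 ± 13.6 (log2 fold change 0.84, SE 0.25, adjusted p = 0.181). All 7 listed complement receptors were tested, 6 of them negative. C5ar1, the receptor for the C5a fragment, had 0.405 ± 0.292 CPM against 1.2 ± 0.553 with groups that did not overlap (log2 fold change −1.58, SE 0.69, adjusted p = 0.31). It is limited by low counts, with 8, 6, 0, 5 and 12 in M46 to M50 and 34, 10, 25 and 15 in the vehicle libraries. The highest formoterol value, 0.706 CPM, lay just below the lowest vehicle value, 0.792. C5ar1 sits mainly on myeloid cells, whose marker sum was lower in every formoterol library but M49, and the part of these cells was not tested.

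Of 27 listed coagulation and fibrinolysis partners, 20 were tested and none passed the adjusted threshold, with a median of −0.19. At an unadjusted p under 0.05, 2 of them were higher and 2 were lower, against 9.03% and 5.53% of all genes tested. Serpinf2, the inhibitor of plasmin, had 335 ± 103 CPM against 219.6 ± 28.9 (log2 fold change 0.61, SE 0.21, adjusted p = 0.223). Anxa2, a cell-surface receptor for plasminogen, had 19.1 ± 13.9 CPM against 42.4 ± 4.39 (log2 fold change −1.14, SE 0.38, adjusted p = 0.224). In the vitamin K list (6 genes tested, 1 higher and 0 lower at that p), Cyp4f14 had 73.7 ± 15.8 CPM against 47.1 ± 7.77 (log2 fold change 0.65, SE 0.18, adjusted p = 0.173); in humans its relative CYP4F2 breaks down vitamin K. Vkorc1 and Ggcx, which recycle and use vitamin K to carboxylate clotting factors, had log2 fold changes of 0.70 (SE 0.37) and 0.081 (SE 0.13).

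Of 15 transcription factors known to drive hepatocyte secreted protein genes, 1 stood higher and 1 stood lower by an unadjusted p under 0.05. Over all genes tested, 9.03% were higher and 5.53% lower at that p. Foxa3 had 24.4 ± 8.34 CPM against 15.4 ± 3.16 with groups that did not overlap (log2 fold change 0.66, SE 0.23, adjusted p = 0.22). The lowest formoterol value, 18.2 CPM in M49, lay just above the highest vehicle value, 18.1 in M60, and M46 was highest at 38.6. Formoterol was higher without overlap in 2.45% of all genes tested. Cebpa, Cebpb and Hnf4a had log2 fold changes of 0.09, 0.19 and −0.10. Of 16 genes that carry interleukin-6, interleukin-1 and tumour necrosis factor signals to the liver, 13 were tested, and Il1r1, the interleukin-1 receptor, had 32.5 ± 15.8 CPM against 18.6 ± 3.16 (log2 fold change 0.80, SE 0.28, adjusted p = 0.224) as the only one with an unadjusted p under 0.05. Socs3 and Stat3, a target and the mediator of interleukin-6, had log2 fold changes of 0.58 (SE 0.40) and 0.28 (SE 0.20).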

How the data were processed

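The authors deposited 1 table of raw counts of reads per Ensembl gene for 9 liver libraries, with gene symbols, positions and lengths. Reads were aligned with HISAT2 2.0.5 to mm39, and DESeq2 is also named, per the submitters' processing notes. The counting program, strand setting and annotation release remain not given in the sources used here. Reads of overlapping genes therefore cannot be told apart by strand.

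Groups were read from the column suffix (HF formoterol, HD vehicle), with the group sizes of the design text. Each library was taken as 1 mouse. Were that not so, the p-values would reflect technical spread alone. All 56748 genes entered 1 fit with edgeR 4.0.16 (R 4.3.3; filterByExpr, minimum count 10, minimum total 15; TMM; robust quasi-likelihood test; Benjamini-Hochberg over 13042 genes; threshold 0.05). The SE is the log2 fold change over the root of F. CPM uses TMM-scaled totals and is given as mean ± SD over 5 formoterol against 4 vehicle libraries. CPM per kb divides by the deposited gene length. DESeq2 1.42.0, limma 3.58.1, other scalings, a gene length correction and leaving out each library were alternatives. Library ratios were compared with two-sided exact permutation tests (smallest p 0.0159). The scripts were tested on simulated data.

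Every one of the 42 genes is reported; values in each library and full tests are given for at least the 8 with the smallest p of each system and the 2 most abundant per length. The genes and lists were chosen with earlier results of these data known. From each partner list up to 4 genes with the smallest p were named; Ggcx, Cebpa, Cebpb, Hnf4a, Socs3 and Stat3 were named for their role, after values were seen, wherever they fell outside that rule. Some genes within that rule and 1 of the motifs searched are not reported here. Shared 75-base windows were counted between GENCODE vM21 transcripts. Start regions come from RefSeq (GRCm38.p6) and gene positions from the deposited table (mm39).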

Additional observations from a re-analysis of the deposited data

How the results depend on the processing

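No paired analysis was possible because the column names carry no replicate number of the labels. RLE or upper-quartile factors and limma-voom kept all 4 counts at an unadjusted p under 0.05 within 1.5 times. Library totals alone moved the median of all genes to −0.16 and left 5 complement genes higher and 1 lower and 5 coagulation genes higher (467 higher and 1292 lower over all 13042 genes). Relative to that shift the medians were 0.40 and 0.36, values that a change of library scaling hardly alters. Removing the gene length trend gave 1 complement gene lower. Scaling to hepatocyte markers gave 3 higher and 2 lower complement genes, 3 higher and 1 lower coagulation genes (203 and 2644 over all genes), and medians of 0.039 and −0.013, the latter a reversed sign. Limma-voom with quality weights gave 15 coagulation genes higher (1865 over all genes, with 1838 lower). Its weights were 3.51 for M47 and 0.369 for M49, and 0.596 to 1.84 for the other libraries. At an adjusted p under 0.05 this weighted fit called 14 of the 42 higher (792 of all genes higher, 582 lower). DESeq2 called 5 (221 and 93), no filter on low counts 2 (191 and 72), and edgeR without M46 and M49 8 (189 and 134). No alternative called any of the 42 lower.

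Leaving out 1 library at a time gave 5 to 11 complement genes higher at an unadjusted p under 0.05 (5 without M46, M47 or M59, 11 without M49), where 766 to 1606 of all genes were higher, the most without M49. It gave 0 to 10 of the 42 called higher, the 10 without M49. Over all genes it gave 0 to 442 called higher and 0 to 260 lower, both highest without M49, with 1 and 3 without M60. The differences in log2 ratio of C8a to C8g ranged from −0.41 to 0.37 and of C1ra to C1s1 from −0.19 to 0.067, and both changed sign. The causes of these changes were not tested. With 5 against 4 libraries and no adjusted call, a difference that misses the threshold does not show equal levels, and Cfb and Tfpi are limited by low counts.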
